A study of Homo sapiens with 18 samples.

Results

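The genes described here are 5 chemokines and 5 regulators of the NF-κB pathway, measured in VCaP, a line from a human prostate cancer with the TMPRSS2:ERG fusion and high ERG. The chemokines are CXCL8, CXCL1, CXCL2, CXCL3, and CCL20, and the regulators are TNFAIP3, NFKBIA, NFKBIZ, BIRC3, and RELB. They make up 10 of the 22034 genes in the count table. They were chosen by name, as a family selected on the readout: CXCL8 and CCL20 were near 0 counts in DMSO and high after 12 h of PBITE-1. The 12 h against DMSO comparison is therefore given as a description with no test for these genes, and the same holds for CXCL8 and CCL20 in each comparison with DMSO.

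RNA-seq was available for 18 samples in 6 groups of 3. Parental VCaP cells received DMSO (time of collection not given) or 50 µM PBITE-1, a small molecule that binds the Pointed domain of ERG, for 4, 8, or 12 h. VCaP-shERG cells, which carry a stably integrated hairpin against ERG under a doxycycline-inducible promoter, received vehicle (shERG-DMSO) or 1 µg/mL doxycycline (shERG-Dox) for a time that the labels do not give. All 18 samples share the VCaP background, the 3 PBITE-1 times share the same 3 DMSO samples, and no doxycycline-treated cells without the ERG hairpin were analysed here.

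NF-κB is a family of paired DNA-binding proteins (RELA, REL, RELB, and the products of NFKB1 and NFKB2) held in the cytoplasm by inhibitor proteins. Signals from cytokine receptors, innate sensors, or stress activate a kinase complex that marks the inhibitors for destruction, and the freed dimers enter the nucleus. Their early targets include chemokines that attract neutrophils and lymphocytes, and also the inhibitors that shut the pathway off again. AP-1 and C/EBP proteins act with NF-κB at the promoters of several of these genes, CXCL8 among them.

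Promoter sequences are shown because the genes share a letter pattern next to their starts. The genes were chosen by name as NF-κB pathway genes. A shared NF-κB pattern is therefore not independent of that choice, and the shares below are descriptions. RefSeq promoters (build GRCh38.p14, 250 bases before to 50 after the start) were matched for 9 of the 10 genes, with 2 starts for NFKBIZ, and RELB is named only. The 10-letter NF-κB consensus, searched on both strands, was found in 8 of these 9 genes and in 5.91% of all 35116 promoters. The 9-letter core GGAATTTCC, which overlaps the consensus, was found in 6 of the 9 and in 0.461% of promoters. CXCL8 held the core and no consensus match. The core has the same letters as the CXCL8 match, so it brings in the only gene that the consensus missed. With both patterns counted, each of the 9 genes held at least 1, against 6.12% of promoters, and nothing is read from that count. The AP-1 motif TGANTCA was found in 1 of the 9, CXCL8, and in 7.71% of promoters. These matches are descriptions of letters and not of bound sites. The 30 bases around the match nearest to the start are printed 5′ to 3′ on the strand of the gene, with the matches in capitals. The run for CXCL8 is longer so that it holds both its AP-1 match and its core match.
CXCL8, chr4:73740427-73740493, + strand: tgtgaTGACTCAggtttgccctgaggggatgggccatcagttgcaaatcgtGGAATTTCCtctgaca
CXCL1, chr4:73869301-73869330, + strand: gatctggaactccGGGAATTTCCCtggccc
CXCL2, chr4:74099257-74099286, - strand: gatctggagctccGGGAATTTCCCtggccc
CXCL3, chr4:74038752-74038781, - strand: gatctggagctccGGGAATTTCCCtggccc
CCL20, chr2:227813749-227813778, + strand: cagttgatcaatggGGAAAACCCCatgtgg
TNFAIP3, chr6:137867190-137867219, + strand: ttGGAAAGTCCCgtGGAAATCCCCgggcct
NFKBIA, chr14:35404815-35404844, - strand: ggtctgactggcttGGAAATTCCCcgagcc
NFKBIZ, first start, chr3:101827754-101827783, + strand: acctttttggtctGGGAATTTCCagtgtgc
NFKBIZ, second start, chr3:101849264-101849293, + strand: cgcgcgctgtcGGGGTTTCCCggtgaaggg
BIRC3, chr11:102317335-102317364, + strand: tggttattaccgctGGAGTTCCCCtaagtc

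In CXCL1, CXCL2, and CXCL3 the capitals are 2 overlapping consensus matches, and the printed runs of CXCL2 and CXCL3 were identical over all 30 bases. The run of CXCL1 matched each of them at 29 of 30 bases. TNFAIP3 held 2 separate matches, which begin 67 and 55 bases before the start (counted as -67 and -55). The matches of CXCL8, CXCL1, CXCL2, CXCL3, CCL20, and NFKBIA began between -91 and -77. BIRC3 held a second match at -199, beside the one printed at -135, and both NFKBIZ matches lay farther out, at -223 and -239. In the annotation (GENCODE release 29, GRCh38), the 4 CXC genes lie on chromosome 4, with CXCL8 at 73740506 to 73743716, CXCL1 at 73869393 to 73871242, CXCL3 at 74036589 to 74038807, and CXCL2 at 74097035 to 74099293. CXCL2 and CXCL3 shared 79 windows of 100 bases between their transcripts, 5% of those of CXCL2 and 3.27% of those of CXCL3. Reads from these stretches cannot be assigned to one of the pair, so their lowest counts are uncertain.

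Totals ranged from 11308600 to 17483423 counts per sample. ERG fell with doxycycline from 448 to 164 CPM (log2 -1.44 ± 0.04 SE) and was lower at each PBITE-1 time, from 289 CPM in DMSO to 180, 93.8, and 97.2 CPM after 4, 8, and 12 h. CPM are counts per 1000000 counts of the library, scaled by TMM within each experiment. The summed level of 8 luminal prostate markers was 7500 to 7640 CPM in DMSO and 3290 to 3870 CPM at 12 h. The 7 leukocyte markers summed to at most 2.89 CPM in any sample, with at most 4 counts of PTPRC. The 6 fibroblast markers summed to 2.14 to 3.29 CPM in DMSO and 5.31 to 9.28 CPM at 12 h, and the 4 endothelial markers to 0.793 to 1.48 and 1.82 to 2.46 CPM. Of the 6 fibroblast markers, 4 held at most 3 counts in each 12 h sample. The luminal sum was 10300 to 10600 CPM in shERG-DMSO and 6250 to 6490 CPM in shERG-Dox. In the same groups the fibroblast sum was 1.42 to 2.32 and 7.83 to 9.56 CPM, and the endothelial sum 0.3 to 0.744 and 1.09 to 1.31 CPM. The part of these shifts in the results below was not tested.

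The chemokines went from almost no reads in untreated cells to abundant (CXCL8, CCL20) or low but clear (CXCL1, CXCL2, CXCL3) levels under PBITE-1. Their untreated levels set what can be said of any ratio, because all 5 entered the fit only through PBITE-1 samples. Genes were required to reach about 10 counts in at least 3 samples, and none of the 5 did so in DMSO, shERG-DMSO, or shERG-Dox. For this reason their comparisons with DMSO are given as counts, ratios of summed counts with exact 95% intervals (counting error only), or lower bounds against 3 counts over the DMSO group. In bulk RNA, a change in the number of expressing cells and in the RNA per cell cannot be told apart.

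CXCL8 encodes interleukin-8, the main neutrophil attractant in humans. Its counts were 7, 5, and 12 in the 3 DMSO samples, 946, 435, and 531 at 4 h, 1062, 1129, and 901 at 8 h, and 3355, 3716, and 3582 at 12 h. No treated sample overlapped a DMSO sample, and the 12 h samples lay within a narrow range far above the rest. Scaled means (± SD over 3 samples) were 0.483 ± 0.191 CPM in DMSO, then 49.8 ± 24.7 CPM after 4 h, 73.5 ± 10.1 CPM after 8 h, and 245 ± 4.7 CPM after 12 h. The ratio to DMSO was 99.8 after 4 h (interval 66.9 to 156), 148 after 8 h (interval 99.1 to 231), and 500 after 12 h (interval 336 to 781). The spread at 4 h came from replicate 1, which was at 78 CPM against 32.1 and 39.3 CPM in the others.

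CCL20 encodes a chemokine that attracts CCR6-bearing dendritic cells and lymphocytes. The DMSO samples held 0, 0, and 1 counts, the 4 h samples 82, 31, and 61, the 8 h samples 141, 141, and 119, and the 12 h samples 298, 353, and 346. The 3 times did not overlap each other after scaling, and each later time was higher than the one before. With 1 count over the DMSO group, the ratio at 12 h was 1120 with a counting interval of 201 to 44400, so the size of the increase is poorly bounded from above. At 4 h it was 218 (38.6 to 8660). That 1 count came from replicate 3 of the DMSO group, and without this sample CCL20 was at least 46.8-fold higher at 4 h and 241-fold at 12 h, against 3 counts.

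CXCL1, CXCL2, and CXCL3 encode closely related ligands of CXCR2, the neutrophil receptor. CXCL1 held 2, 6, and 0 counts in DMSO, 115, 61, and 84 at 4 h, 49, 39, and 29 at 8 h, and 60, 66, and 72 at 12 h. CXCL3 held 0 counts in each DMSO sample, 16, 27, and 19 at 4 h, 12, 8, and 11 at 8 h, and 14, 25, and 24 at 12 h. CXCL2 held 0 counts in each DMSO sample, 10, 5, and 6 at 4 h, 0, 2, and 7 at 8 h, and 140, 104, and 136 at 12 h. CXCL1 and CXCL3 thus had their lowest treated level at 8 h, while CXCL2 was scarce until 12 h. The ratio of CXCL1 to DMSO was 40.7 after 4 h (interval 20.4 to 95.3), 16.8 after 8 h (interval 8.24 to 39.8), and 27.9 after 12 h (interval 13.9 to 65.5). Replicate 2 of the DMSO group held 6 of the 8 counts, and without it the ratio was 109 after 4 h (interval 29.8 to 901) and 74.3 after 12 h (interval 20.3 to 618). Without replicate 3, which held none, it was 26.2 and 17.9. These ratios without a DMSO sample were added after seeing the data. CXCL3 was at least 25.9-fold higher after 4 h, 11.9-fold after 8 h, and 23.7-fold after 12 h. CXCL2 was at least 8.77-fold higher at 4 h, 3.44-fold at 8 h, and 143-fold at 12 h.

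**Figure D1:**
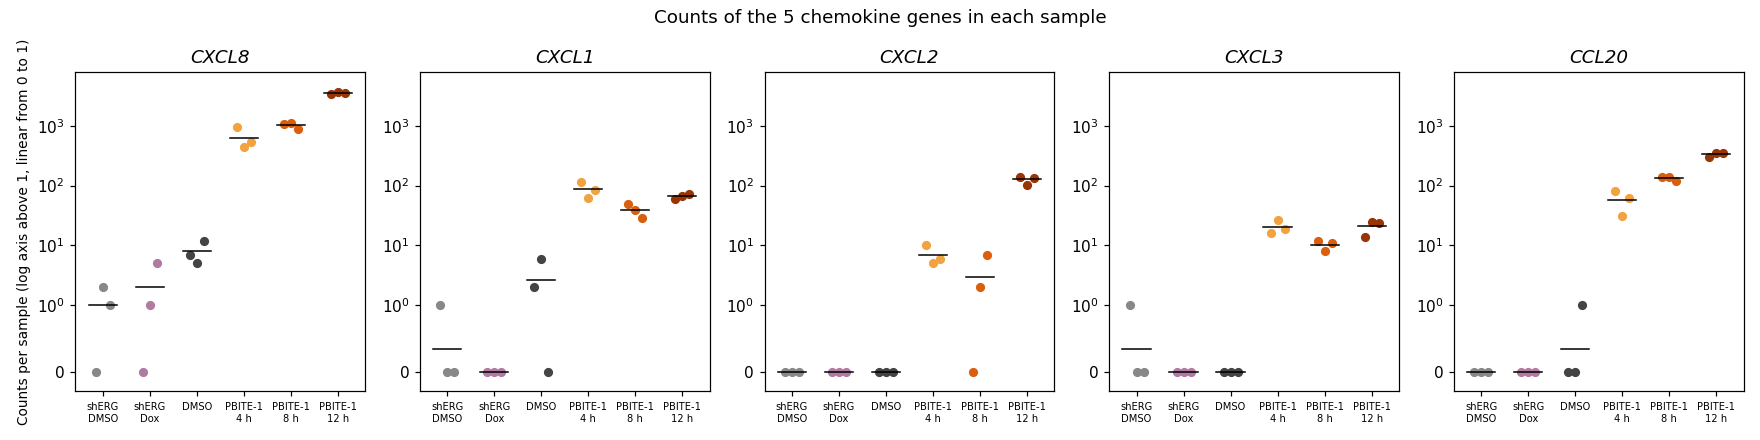
Counts of each chemokine gene in each of the 18 samples (points; the vertical axis is linear from 0 to 1 and logarithmic above), with the group mean as a line. CXCL8 stands at 5 to 12 counts in DMSO and 3355 to 3716 counts at 12 h of PBITE-1, and the shERG samples hold at most 5 counts of any of the 5 genes.

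The receptors of these ligands were almost unread. CXCR1 and CXCR2, the receptors of CXCL8 and its relatives, had at most 1 count in any sample, and CCR6, the receptor of CCL20, had at most 3. A level below 3 counts per library was not detectable at this depth.

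The 5 regulators were measurable in all 18 samples and were higher at every PBITE-1 time. Against DMSO, a gene counted as called with an adjusted p under 0.05 (limma-voom, Benjamini-Hochberg over 14164 genes) and an absolute log2 fold change above 1, which is 2-fold. All 5 were called higher at 4 h and at 8 h, where 7.28% and 14.9% of all tested genes were. Of the 8 genes other than CXCL8 and CCL20, the fit called 8 at 4 h and 7 at 8 h, CXCL2 being the exception (adjusted p = 0.1). The 3 chemokines in this count entered through the treated groups, and the DMSO samples are those on which the family was chosen, so the count is a description. At 12 h all 10 genes were past 2-fold higher, as were 17.3% of tested genes, and nothing is read from that count because it includes the contrast used to choose them.

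NFKBIA encodes IκBα, the inhibitor that recaptures NF-κB dimers and is itself an early target. It had the highest level per length of the 10 genes in DMSO, at 16.1 CPM per kb of exon. Its levels were 38.4, 38.1, and 37.8 CPM in DMSO, 313, 261, and 297 CPM at 4 h, 165, 179, and 183 CPM at 8 h, and 182, 207, and 188 CPM at 12 h. All treated samples were above DMSO, and the 4 h samples were above all later ones. The log2 difference from DMSO was 2.92 ± 0.07 (SE) at 4 h (adjusted p = 1.75e-30) and 2.20 ± 0.07 at 8 h (adjusted p = 1.39e-26).

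TNFAIP3 encodes A20, a ubiquitin-editing enzyme that turns off signaling upstream of the kinase complex. Its levels were 1.64, 3.3, and 2.06 CPM in DMSO, 130, 100, and 109 CPM at 4 h, 93.6, 103, and 98.1 CPM at 8 h, and 79.6, 93.6, and 82.6 CPM at 12 h. All treated samples were above DMSO, while those of 4 and 8 h overlapped. The increase was the steepest of the regulators, with a log2 difference from DMSO of 5.62 ± 0.24 at 4 h (adjusted p = 9.81e-22) and 5.43 ± 0.24 at 8 h (adjusted p = 7.74e-22). An antisense gene overlaps TNFAIP3 in the annotation. The use of strand in counting is not stated, so reads of the pair cannot be separated.

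BIRC3 encodes cIAP2, a ubiquitin ligase of the TNF receptor complex that also restrains the noncanonical pathway. Its levels were 11.8, 11.9, and 11.7 CPM in DMSO, 55.2, 42.7, and 40.9 CPM at 4 h, 112, 125, and 128 CPM at 8 h, and 63.1, 93.4, and 74 CPM at 12 h. The log2 difference from DMSO was 1.95 ± 0.14 at 4 h (adjusted p = 1.12e-14) and 3.36 ± 0.13 at 8 h (adjusted p = 1.17e-23). The samples of the 3 times did not overlap, and 8 h was the highest.

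RELB encodes the NF-κB subunit that acts in the noncanonical branch, and it followed the order seen for BIRC3. Its levels were 4.2, 3.78, and 3.82 CPM in DMSO, 27.1, 15.7, and 21.7 CPM at 4 h, 38, 41.2, and 42.1 CPM at 8 h, and 20, 25.8, and 27 CPM at 12 h. The 8 h samples were above all others, whereas those of 4 and 12 h overlapped. The log2 difference from DMSO was 2.40 ± 0.20 at 4 h (adjusted p = 5.81e-13) and 3.35 ± 0.19 at 8 h (adjusted p = 1.72e-18).

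NFKBIZ encodes IκBζ, a nuclear protein that binds NF-κB and is needed for part of its later targets. Its levels were 5.19, 6.41, and 6.17 CPM in DMSO, 28.7, 23.8, and 26.8 CPM at 4 h, 29.1, 25.7, and 32 CPM at 8 h, and 44.8, 44, and 45.8 CPM at 12 h. The 4 and 8 h samples overlapped, and the 12 h samples were above both. The log2 difference from DMSO was 2.14 ± 0.13 at 4 h (adjusted p = 7.93e-17) and 2.27 ± 0.13 at 8 h (adjusted p = 1.91e-18).

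**Figure D2:**
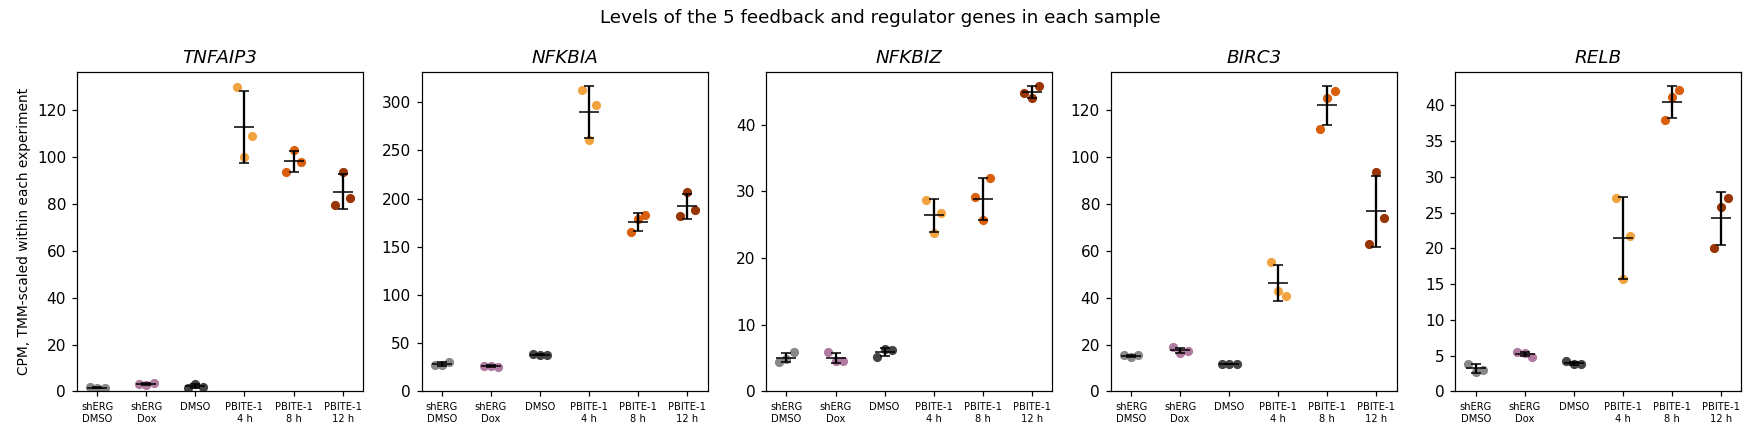
Levels of the 5 regulators in each sample (points, CPM scaled within each experiment, linear axis from 0), with the mean and SD of each group of 3. NFKBIA is highest at 4 h (290 CPM), BIRC3 and RELB at 8 h (122 and 40.5 CPM), and NFKBIZ at 12 h (44.9 CPM).

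The 10 genes followed different courses over the 3 times. Relative to the time at which each gene was highest, NFKBIA stood at 60.7% at 8 h and 66.2% at 12 h. TNFAIP3 stood at 86.9% and 75.5%. Both had their highest mean at 4 h, but the 4 and 8 h samples of TNFAIP3 overlapped. CXCL1 and CXCL3 were also highest at 4 h, but their 4 and 12 h samples overlapped. BIRC3 stood at 38% at 4 h and 63% at 12 h of its level at 8 h, and RELB at 53.1% and 59.8%. CXCL8, CCL20, CXCL2, and NFKBIZ were highest at 12 h, and CXCL2 was at only 6.21% and 2.9% of that level at 4 and 8 h. Per kilobase of exon, NFKBIA led the 10 genes at 4 h (122 CPM per kb, against 22.4 for TNFAIP3 and 21.9 for CXCL8), whereas CXCL8 led at 12 h (108 CPM per kb, against 80.9 for NFKBIA).

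**Figure D3:**
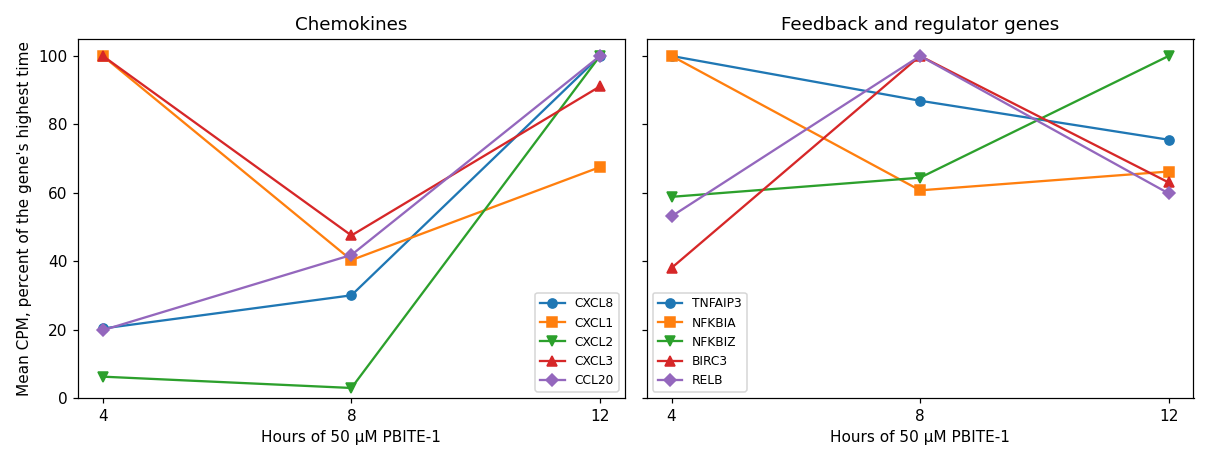
Mean level of each gene at 4, 8, and 12 h of PBITE-1, as a percent of that gene's highest time (3 samples per point). The left panel holds the chemokines, of which CXCL8, CXCL2, and CCL20 are highest at 12 h, and the right panel the regulators, of which BIRC3 and RELB are highest at 8 h.

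The change from 4 to 8 h was tested directly, since its samples are neither the DMSO nor the 12 h samples on which the family was chosen. CXCL2 entered the fit only through the 12 h samples, and CXCL3, without those, only through the 4 h samples, so the differences of both are given as descriptions with no test. Of the 8 other genes, 2 were called higher (4.43% of all tested genes) and 1 lower (2.22%). With no fold limit, 7 had an adjusted p under 0.05. The share of all tested genes without that limit is not given, so nothing is read from this count. BIRC3 rose by 1.41 ± 0.09 on the log2 scale (adjusted p = 3.98e-16), and it was called under every alternative fit and without any one sample. CCL20 rose by 1.19 ± 0.21 (adjusted p = 7.83e-06), which became 0.77 without replicate 2 of the 4 h group. CXCL1 fell by 1.20 ± 0.25 (adjusted p = 0.000101), with a change of -0.94 without replicate 1 of the 4 h group. In both, the adjusted p stayed under 0.05 without that sample, and only the 2-fold limit was missed.

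CXCL3 had a log2 difference of -1.10 ± 0.38, with its 8 h samples below those of 4 h. CXCL2 was at -2.06 ± 0.78 on 21 against 9 summed counts, and its samples overlapped. The ratio of its summed counts was 0.392 (interval 0.158 to 0.894, counting error only). That interval leaves out the spread between replicates, which held 10, 5, and 6 counts at 4 h and 0, 2, and 7 at 8 h. Without replicate 1 of the 8 h group the log2 difference was -0.77, so no change of CXCL2 is read from these values.

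The other 5 of these 8 genes were not past the 2-fold limit between 4 and 8 h. RELB was close to it, at 0.95 ± 0.11 (adjusted p = 2.14e-09), and was called without replicate 1 of the 4 h group (1.13) or of the 8 h group (1.00). CXCL8 was at 0.67 ± 0.14 (adjusted p = 6.99e-05) with overlapping samples, and reached 1.02 without replicate 1 of the 4 h group. NFKBIA was at -0.73 ± 0.05 (adjusted p = 9.59e-15) with no overlap, and TNFAIP3 at -0.20 ± 0.07 (adjusted p = 0.0126). NFKBIZ was at 0.12 ± 0.09 (adjusted p = 0.238), with a 95% interval of -0.05 to 0.30.

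**Figure D4:**
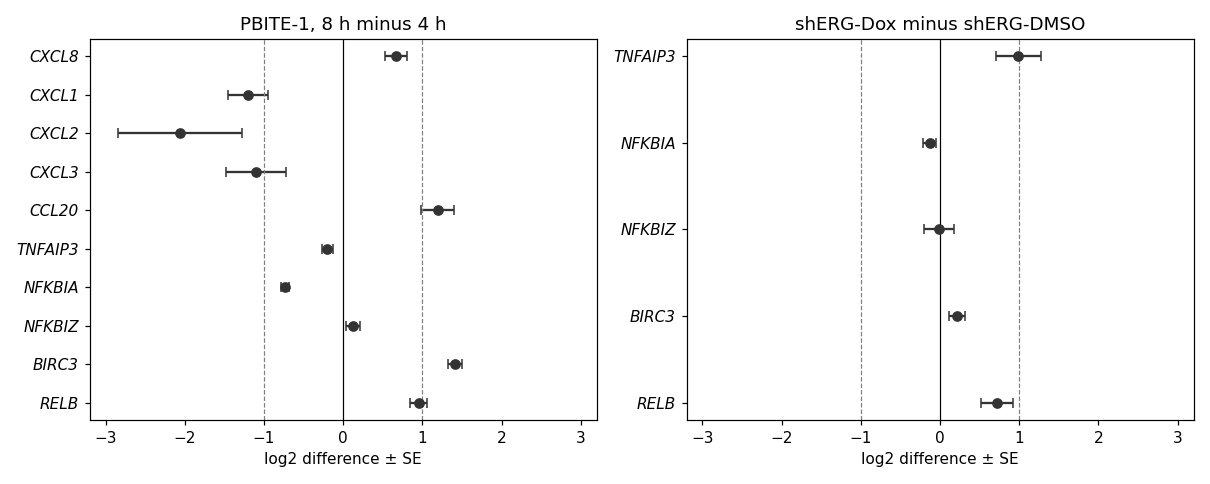
Fitted log2 differences with their standard errors for all 10 genes between 8 and 4 h of PBITE-1 (left) and for the 5 regulators between shERG-Dox and shERG-DMSO (right); dashed lines mark 2-fold. BIRC3 (1.41) and CCL20 (1.19) lie right of the limit and CXCL1 (-1.2), CXCL3 (-1.1), and CXCL2 (-2.06) left of it between times, whereas TNFAIP3 (0.99) is at the limit after doxycycline. CXCL2 and CXCL3 are shown as descriptions.

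Doxycycline induction of the ERG hairpin left the chemokines almost unread. In the 3 shERG-DMSO samples CXCL8 had 0, 2, and 1 counts, and in the 3 shERG-Dox samples 0, 1, and 5. The ratio of 6 to 3 counts was 2.03 with an interval of 0.434 to 12.6. CXCL1 and CXCL3 had 1 count each over the shERG-DMSO group and 0 over shERG-Dox, and CXCL2 and CCL20 had 0 counts in all 6 samples, so no fold is given. A change between levels under about 3 counts per library was not detectable at this depth.

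None of the 5 regulators was called after doxycycline by limma-voom, where 12.0% of tested genes were called higher and 7.19% lower. The 5 chemokines were not called either, but they held at most 6 counts over a group. Nothing is read from their lack of a call. An unadjusted p under 0.05 was reached by 3 of the 5 regulators. The share of all tested genes at that limit is not given, so nothing is read from this count. With edgeR and DESeq2, 1 regulator was called, TNFAIP3. TNFAIP3 had 1.75, 1.28, and 1.57 CPM in shERG-DMSO and 2.98, 2.64, and 3.57 CPM in shERG-Dox, with no overlap and a log2 difference of 0.99 ± 0.28 (adjusted p = 0.00264), at the 2-fold limit. RELB had 3.91, 2.77, and 3 CPM in shERG-DMSO and 5.45, 5.36, and 4.88 CPM in shERG-Dox (log2 0.72 ± 0.20, adjusted p = 0.00263), again with no overlap. Both were thus higher by the test but not past the fold limit, and TNFAIP3 was past it under 9 of the 15 other settings.

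The other 3 regulators did not reach the threshold. BIRC3 was at 15.1 ± 0.563 CPM in shERG-DMSO and 17.5 ± 1.18 CPM in shERG-Dox (log2 0.21 ± 0.10, adjusted p = 0.055). NFKBIA was at 28.7 ± 2.01 and 26.2 ± 0.758 CPM, a log2 difference of -0.13 with a 95% interval of -0.29 to 0.04. NFKBIZ was at 5.09 ± 0.739 and 5.04 ± 0.796 CPM, a difference of -0.01 with an interval of -0.40 to 0.37. The signs of the last pair depend on the scaling: with library size only, which moves the median of all genes from 0.02 to 0.28, NFKBIA was at 0.14 and NFKBIZ at 0.25.

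The doxycycline response was compared with the 8 h PBITE-1 response in a fit of all 18 samples. Each of the 5 regulators was called, with a smaller response to doxycycline; 14.0% of tested genes were called in that direction. The difference was -4.41 ± 0.45 for TNFAIP3 (adjusted p = 7.89e-12), -3.11 ± 0.20 for BIRC3 (3.51e-18), -2.59 ± 0.33 for RELB (3.13e-09), -2.29 ± 0.12 for NFKBIA (4.68e-21), and -2.25 ± 0.24 for NFKBIZ (1.56e-11). ERG itself differed by 0.20 ± 0.06 (adjusted p = 0.00292) in the same fit. The cell population, the agent, and the time all differ between the arms and cannot be told apart.

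On 1 scale over all 18 samples, the untreated levels of the experiments also differed for some regulators. NFKBIA was at 39.6 to 40.3 CPM in DMSO and 25.4 to 29 CPM in shERG-DMSO, and TNFAIP3 at 1.73 to 3.46 and 1.2 to 1.63 CPM, without overlap in either. For TNFAIP3, shERG-Dox (2.47 to 3.35 CPM) overlapped the parental DMSO samples. RELB was likewise higher in DMSO (3.97 to 4.42 CPM) than in shERG-DMSO (2.59 to 3.66 CPM), whereas BIRC3 was lower in DMSO (12.3 to 12.5 CPM) than in shERG-DMSO (13.5 to 14.5 CPM), again without overlap. NFKBIZ overlapped between DMSO (5.45 to 6.72 CPM) and shERG-DMSO (4.2 to 5.55 CPM). These differences were not tested.

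Other genes of the pathway were followed through 9 lists with 116 entries, of which 112 were in the table and 85 passed the filter. After doxycycline 5 were called higher and 6 lower, at 4 h 30 and 4, at 8 h 34 and 6, and at 12 h 38 and 8. Among all tested genes the shares called higher at the 3 times were 7.28%, 14.9%, and 17.1%, and those called lower 2.99%, 8.86%, and 15.4%. After doxycycline 12.0% of all tested genes were called higher and 7.19% lower. The doxycycline counts were near or below those shares, so nothing is read from them. With library size only, the split after doxycycline was 8 higher and 3 lower, and with upper-quartile scaling 6 and 3. These scalings moved the median of all genes to 0.28 and 0.18, and no share of all tested genes is given for them. The median log2 difference of the 85 genes was 0.05 after doxycycline and 0.32, 0.71, and 0.74 under PBITE-1 at the 3 times, against 0.02, -0.01, -0.02, and -0.01 for all tested genes. The lists were written with results of these data known, so their counts are descriptions.

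Among ligands, TNF, the classical activator of the pathway, had 0 counts in DMSO and 71, 89, and 108 counts over the 3 samples at 4, 8, and 12 h, at least 29.7-fold, 34-fold, and 40.6-fold higher. CSF3, the granulocyte growth factor, had 0 counts in DMSO and 54, 47, and 16. TNF and CSF3 were singled out after their values were seen. CXCL11, an interferon-induced chemokine that attracts T cells, moved the other way, with 37.6 CPM in DMSO, 12.6 CPM at 8 h (log2 -1.57 ± 0.09, adjusted p = 3.04e-18), and 3.09 CPM at 12 h (-3.59 ± 0.16, adjusted p = 7.25e-22). It also fell after doxycycline, from 16.3 to 3 CPM (-2.49 ± 0.20, adjusted p = 2.92e-11). CXCL11 lies within ART3 on the opposite strand, so its counts are uncertain. Overlaps of the other list genes are not given here, and the same limit may hold for CXCL10. CXCL10, another interferon-induced chemokine, rose between 4 and 8 h from 9.94 to 24.5 CPM (1.29 ± 0.12, adjusted p = 2.14e-11). It stood at 6.12 CPM in DMSO and at 9.14 CPM at 12 h, where all samples were below those of 8 h. After doxycycline CXCL10 was called lower, from 2.07 to 0.542 CPM (-2.34 ± 0.53, adjusted p = 0.000374).

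Among the NF-κB subunits, NFKB2, which encodes the partner of RELB, had 10.2 CPM in DMSO and rose to 27.1 CPM at 4 h (log2 1.39 ± 0.14, adjusted p = 3.65e-11) and 52.4 CPM at 8 h (2.36 ± 0.13, adjusted p = 1.67e-19). REL rose by 1.37 ± 0.08 at 4 h (adjusted p = 2.27e-18) and by 1.35 ± 0.07 at 8 h (adjusted p = 5.6e-19). NFKB1 rose at 8 h (1.48 ± 0.08, adjusted p = 1.21e-18) and at 12 h (1.5 ± 0.08, adjusted p = 4.57e-19). RELA, the main activating subunit, was not called at any time, at 86.5 CPM in DMSO and 94.7, 93.2, and 114 CPM at 4, 8, and 12 h. No subunit was called after doxycycline or between 4 and 8 h.

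Of 12 other inhibitors tested, 1, 2, and 4 were called higher at 4, 8, and 12 h, and 0 were called after doxycycline or between 4 and 8 h. Of all tested genes 7.28%, 14.9%, and 17.1% were called higher at these times, so the counts at 4 and 8 h were near those shares. NFKBIE, which encodes IκBε, rose by 2.63 ± 0.15 at 4 h (adjusted p = 2.56e-18), 3.07 ± 0.14 at 8 h (adjusted p = 1.93e-21), and 2.52 ± 0.15 at 12 h (adjusted p = 1.14e-18). CYLD, a deubiquitinase that limits the pathway, rose by 1.42 ± 0.08 at 8 h (adjusted p = 4.46e-18) and 1.60 ± 0.08 at 12 h (adjusted p = 3.6e-20). NFKBIB (1.19) and TAX1BP1 (1.09), a binding partner of A20, were called at 12 h. With doxycycline, CYLD went from 30.2 to 60.1 CPM with no overlap (0.99 ± 0.07, adjusted p = 4.63e-13), and only the fold limit was missed.

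Of 9 AP-1 and C/EBP genes tested, 8 were called higher than in DMSO at 4 h (7.28% of all tested genes), 8 at 8 h (14.9%), and 9 at 12 h (17.1%). Between 4 and 8 h they differed in direction. ATF3, a stress-induced AP-1 partner, rose from 0.632 CPM in DMSO to 279 CPM at 4 h and 358 CPM at 12 h (log2 8.82 ± 0.63 and 9.19 ± 0.63, adjusted p = 5.84e-15 and 2.61e-16). JUN rose from 27.1 to 1010 CPM at 4 h (5.20 ± 0.12, adjusted p = 1.76e-30) and fell by 1.65 ± 0.07 between 4 and 8 h (adjusted p = 6.3e-21). CEBPB, which acts with NF-κB at the CXCL8 promoter, rose by 1.22 ± 0.06 between 4 and 8 h (adjusted p = 3.09e-20), from 57.6 to 134 CPM. After doxycycline, 0 of the 9 were called higher (12.0% of all tested genes) and 1 lower (7.19%).

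Of the remaining lists, 9 of 15 other NF-κB targets were called higher at 4 h, 9 at 8 h, and 8 at 12 h, against 7.28%, 14.9%, and 17.1% of all tested genes. SDC4, a cell surface proteoglycan, rose from 91.8 to 188 CPM between 4 and 8 h (1.04 ± 0.05, adjusted p = 7.7e-19). GADD45B, a stress-response gene, rose by 3.97 ± 0.22 at 8 h (adjusted p = 1.13e-18). Among 22 adaptors and kinases, 2, 3, and 7 were called higher at the 3 times, which at 4 and 8 h was near the shares of all tested genes. IKBKB, which encodes the kinase IKKβ, fell by 1.38 ± 0.10 at 8 h (adjusted p = 7.23e-15). Among receptors, TLR3, the sensor of double-stranded RNA, fell by 1.70 ± 0.25 at 4 h and 2.84 ± 0.32 at 8 h (adjusted p = 3.22e-07 and 4.67e-10). IL1R1, the interleukin-1 receptor, rose after doxycycline (1.16 ± 0.06, adjusted p = 2.73e-15), as did TNFSF10 (1.25 ± 0.17, adjusted p = 4.13e-07) and TRAF1 (1.08 ± 0.16, adjusted p = 9.33e-07), and it fell at 8 h of PBITE-1 (-1.12 ± 0.09, adjusted p = 5.1e-14). ZFP36L1 and ZFP36L2, which bind AU-rich mRNAs such as those of cytokines and promote their decay, fell after doxycycline (-1.38 ± 0.20 and -1.12 ± 0.08, adjusted p = 1.27e-06 and 6.92e-13). ZFP36L1 also fell at 4 h of PBITE-1 (-1.06 ± 0.21, adjusted p = 6.57e-05) and was not called at 8 h (-0.30). ZFP36L2 was not called at 4 h (0.42) or 8 h (0.38).

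**Figure D5:**
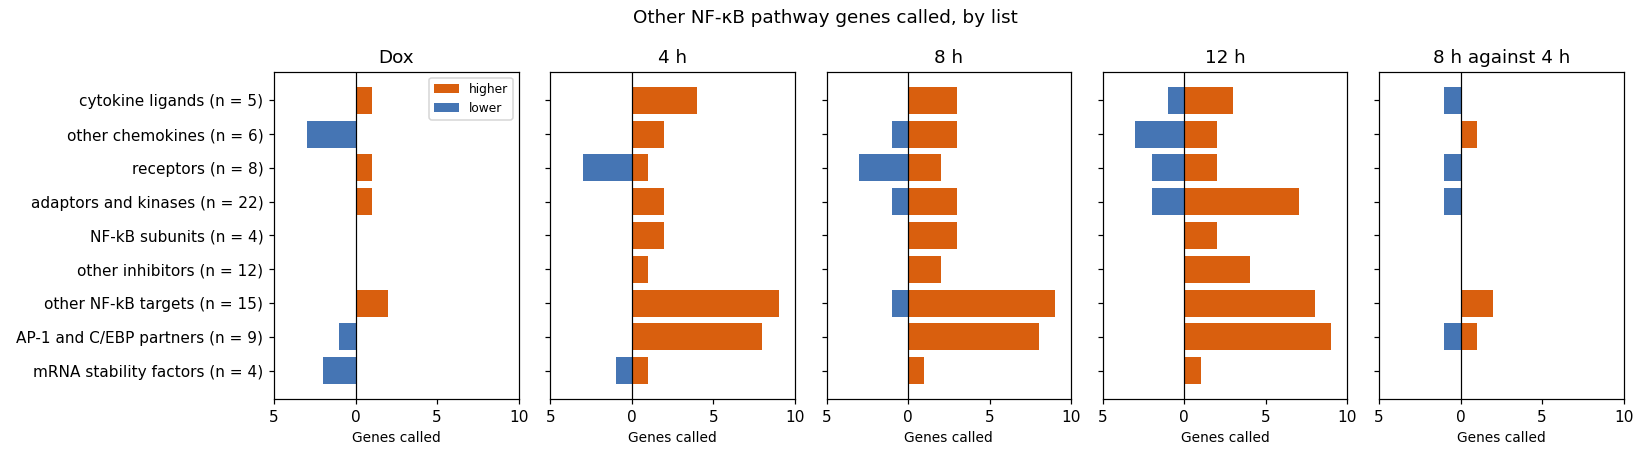
Number of genes called higher (right of 0) and lower (left of 0) in each list, for doxycycline against vehicle, for PBITE-1 at 4, 8, and 12 h against the shared DMSO samples, and for 8 h against 4 h. The AP-1 and C/EBP list has 8, 8, and 9 of 9 tested genes called higher at the 3 times and 0 after doxycycline.

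The profiles most like that of CXCL8 over the 18 samples, by Pearson's r of log2 CPM among genes with a mean count of at least 50, were those of ZFP36 (0.984), JUND (0.983), SIK1 (0.983), MAN2A1 (0.982), and PPP1R15A (0.981). For NFKBIA they were IRF1 (0.985), SOX4 (0.985), ZNF10 (0.984), H1-2 (0.982), and OSER1 (0.981). The points share libraries and the same 6 groups, so these values mostly rank genes by their difference between treated and untreated samples.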

How the data were processed

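RNA was ribosome-depleted and sequenced as paired-end reads. Per the labels, the authors deposited whole-number counts per gene, with no normalization. The submitters' processing notes name STAR, featureCounts, and hg38, whereas the methods name Kallisto with edgeR and limma-voom. Which made the deposited counts, the annotation, and the use of strand are not given in the sources used here. The paper names biological replicates for PBITE-1 against vehicle, and says in general that its data points came from such replicates. For the shERG RNA-seq samples in particular it does not say so, so their p-values may measure technical spread.

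Genes were matched by Ensembl identifier to symbols (22011 of 22034) and kept by filterByExpr over the 6 groups (14164 genes). Counts were scaled by TMM and fitted with voom, lmFit, and eBayes (R 4.3.3, edgeR 4.0.16, limma 3.58.1), the 6 shERG and the 12 parental samples separately, with Benjamini-Hochberg adjustment. The fit was tested on simulated data with known changes. These changes were placed only in well-counted genes, with the same dispersion for every gene. That test therefore does not cover the chemokines at their untreated counts. Log2 CPM used a prior count of 2, and 3 counts were taken as the floor. Replicates differed by more than sampling noise (chi-square per degree of freedom 1.7 to 4.96), so none was counted as a copy.

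The genes, the lists, and the rule for naming were chosen with earlier results of these data known. Besides the 10 genes and ERG, the text names list genes called with a mean count of at least 50 and among the 4 most positive or 4 most negative, called subunits and inhibitors, and the 5 most similar profiles. RELA, CXCR1, CXCR2, CCR6, and PTPRC were named as parts of the pathway or marker lists, and CYLD after doxycycline and CXCL10 at 12 h and after doxycycline were chosen after their values were seen. Other settings tried were DESeq2 1.42.0, the quasi-likelihood test of edgeR, RLE, upper-quartile or library-size scaling, no filter, at least 10 counts in every sample, all 18 samples in 1 fit, only the groups compared, a replicate block, no fold limit, and leaving out each sample. Ratios to DMSO without each DMSO sample were added after seeing the data.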

Additional observations from a re-analysis of the deposited data

Results flagged for a closer look

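By a direct comparison of 8 h against 4 h of PBITE-1 (limma-voom, adjusted over 14164 genes), 2 genes were called higher and 1 lower. These are out of the 8 genes other than CXCL2 and CXCL3. Of all tested genes 4.43% were called higher and 2.22% lower. CXCL2 and CXCL3 were also past the 2-fold limit, with no test. Without the fold limit, 7 of the 8 genes other than CXCL2 and CXCL3 had an adjusted p under 0.05. The share of all tested genes without that limit is not given. The log2 differences were -1.2 for CXCL1, -2.06 for CXCL2, -1.1 for CXCL3, 1.19 for CCL20, and 1.41 for BIRC3. The values of CXCL2 and CXCL3 are descriptions, since CXCL2 entered the fit only through the 12 h samples and CXCL3, without those, only through the 4 h samples. CXCL2 rests on 21 and 9 counts with overlapping samples, and the calls of CXCL1 and CCL20 were each lost without 1 of the samples. BIRC3 was higher in all 3 samples of 8 h than in any of 4 h. The cause was not tested. Groups of 3 are too small for a test of single outlying samples.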

How the results depend on the processing

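Of 154 counts of calls recomputed under alternatives, 132 were within 1.5 times the reported count and 22 were not. After doxycycline, where no gene of the 10 was called, the 5 chemokines held too few reads for a call to be expected. TNFAIP3 was called there with edgeR, DESeq2, upper-quartile scaling, library size only, or at least 10 counts in every sample. Without the fold limit 2 genes were called, and without 1 sample 0 to 1. Requiring at least 10 counts in every sample removes the 5 chemokines by construction, which left 5 genes called at 4 h, 5 past 2-fold at 12 h, and 1 called between 4 and 8 h. For that last comparison the count was 9 without the fold limit and 3 to 5 without 1 sample (3 without replicate 2 of the 4 h group), with CXCL2 and CXCL3 included in these counts. For the pathway lists, the same filter gave 30 genes at 12 h and 4 between 4 and 8 h. The lack of a fold limit gave 77, 52, and, after doxycycline, 44. No share of all tested genes is given beside any count without the fold limit. Between 4 and 8 h the lists held 5 to 13 calls without 1 sample (13 without replicate 1 and 5 without replicate 3 of the 4 h group). After doxycycline the sign of NFKBIA reversed with upper-quartile scaling (0.04) and library size only (0.14). That of NFKBIZ reversed with the same scalings (0.15 and 0.25), with at least 10 counts in every sample (0.03), and without 1 of 3 samples (-0.14 to 0.1 over all samples left out). The cause was not tested. Scaling moved the median of all genes after doxycycline to 0.18 (upper quartile) and 0.28 (library size only).

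With the replicate number as a block, 5 of the 10 genes were called between 4 and 8 h, as without it. This count includes CXCL2 and CXCL3, which are given with no test. After doxycycline 0 were called with or without the block, where the chemokines held too few reads for a call to be expected. At 8 h against DMSO 8 rather than 7 were called. No share of all tested genes with the block is given, so nothing is read from these counts. Deviations of same-numbered samples correlated at -0.07 to 0.17, and 2 to 4 of the 6 samples of a comparison correlated best with their own number, so the numbers were not taken to pair samples. Depth limits the chemokines in untreated samples, where 3 counts correspond to 0.171 to 0.269 CPM.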
